A study of Mus musculus with 16 samples.

Results

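Potassium channel genes were examined in the periaqueductal gray (PAG) of male mice. The PAG lies in the midbrain around the aqueduct, and its neurons respond to opioids and send signals that dampen pain in the spinal cord. They were chosen by symbol: all protein-coding genes whose symbol starts with Kcn, apart from 6 genes of the G protein-gated and related inward rectifiers that were left out by name, with at least 10 counts in at least 4 of the 16 libraries. Of 94 such genes in the files, 77 met the rule, 6 were left out by name and 11 had too few counts. These 77 of 38924 genes in all fell into 16 channel families by symbol. Just inside the count rule lay Kcnk7 and Kcnv2, each with 10 or more counts in 6 libraries, and Kcne2, with 8. Just outside lay Kcnj13, an inward rectifier known from epithelia, which reached 10 counts in 3 libraries, with 23 and 16 counts in knockout-labelled morphine replicates 1 and 3 and 72 counts in wild-type naive replicate 2. Enough counts for testing were found for 75 of the 77 members; Kcnk7 and Kcnv2 were too low.

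The series concerned morphine tolerance, the waning of pain relief by this opioid, and RGSz1, the product of Rgs20, a protein that shortens signalling through G proteins. PolyA RNA was sequenced from 16 libraries in 4 groups of 4: RGSz1 knockout with morphine, RGSz1 knockout naive, wild type with morphine, and wild type naive. Each library pooled PAG punches of 2 male mice. The sources used here do not give the strain, age, morphine dose or schedule, and naive animals rather than vehicle-treated ones were the controls, so effects of handling and injection cannot be told apart from those of the drug.

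Potassium channels let potassium ions leave the cell, which brings the membrane back towards rest after an action potential and sets how readily a neuron fires. Voltage-gated (Kv) channels open on depolarisation and are built from 4 pore-forming subunits, often with auxiliary subunits that change gating or traffic. Calcium- and sodium-activated channels link firing to ion load, inward rectifiers hold the resting potential, and two-pore channels carry a background leak. Opioid receptors act on PAG neurons in part through potassium conductances, among them the G protein-gated inward rectifiers left out here and, as described in rat PAG, voltage-gated channels.

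Libraries held totals of 19.1 to 38.9 M (mega counts) in genes for knockout-labelled morphine, 27.7 to 55.0 M for knockout-labelled naive, 28.4 to 53.9 M for wild-type morphine and 26.5 to 50.2 M for wild-type naive. Levels are given as CPM, meaning counts for each mega count of a library's TMM-scaled total. Rgs20 stood at 12.1 ± 0.667 CPM in knockout-labelled morphine libraries, 12.6 ± 0.950 CPM in knockout-labelled naive libraries, 13.1 ± 1.04 CPM in wild-type morphine libraries and 12.8 ± 0.824 CPM in wild-type naive libraries (SD, n = 4 each), so whole-gene counts did not separate the genotypes, and the libraries are called knockout-labelled throughout. No source used here gives the deleted stretch, and whole-gene counts do not test it. Of the cell type markers listed, none was at 0 in all libraries. A marker score, the mean over a list of log2 CPM centred over the 16 libraries, differed between libraries. For 10 serotonin neuron markers it was 0.06 to 1.34 in knockout-labelled morphine, −1.75 to −0.44 in knockout-labelled naive, 0.26 to 0.63 in wild-type morphine and −0.92 to 0.58 in wild-type naive libraries. Meningeal fibroblast markers stood apart at 1.75 in knockout-labelled morphine replicate 3 and 2.18 in wild-type naive replicate 2, against −0.62 to 0.58 in the other libraries, and results without these 2 libraries are given below.

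**Figure D1:**
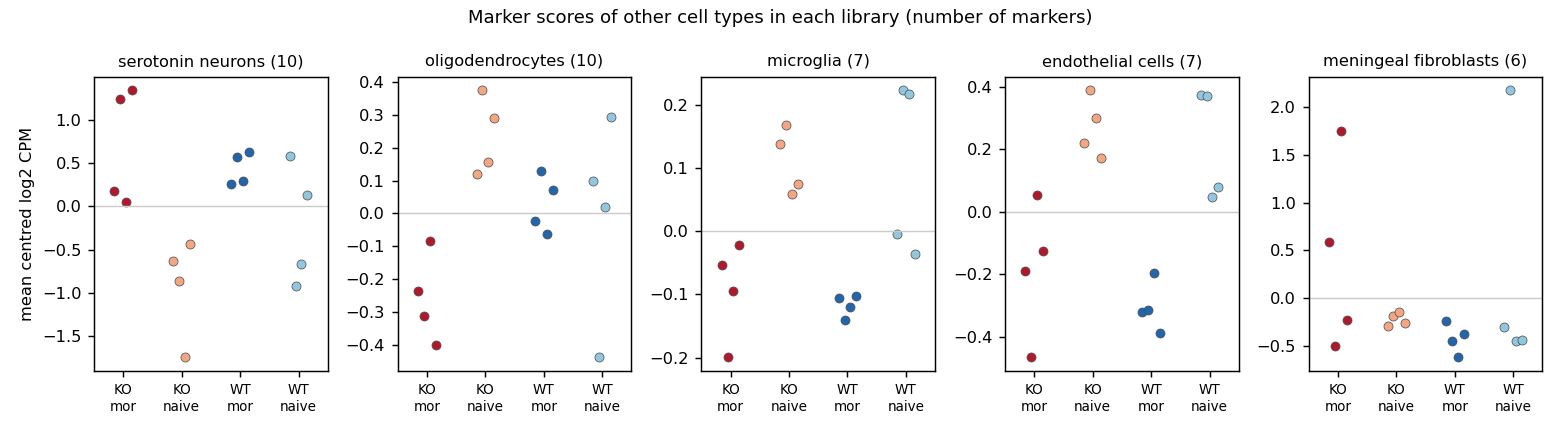
Marker scores of 5 cell types in each of the 16 libraries; the vertical axis is the mean centred log2 CPM over the number of markers in brackets, and each point is 1 library (KO, knockout-labelled; mor, morphine). Serotonin neuron, oligodendrocyte, microglial and endothelial scores of knockout-labelled morphine and naive libraries did not overlap, and 2 libraries stood apart in meningeal fibroblast markers.

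Levels between genes are compared per length, as CPM per kb of exon. Kv3 was the family with the largest summed level, 20.7% of the member sum: Kcnc4 and Kcnc1 lay at 40.3 and 40.0 CPM per kb and Kcnc2 at 20.7. Kv3.1 and Kv3.2, encoded by Kcnc1 and Kcnc2, are fast delayed rectifiers that let neurons fire at high rates, and Kv3.4, encoded by Kcnc4, gives a fast-inactivating current. The Kv1 family, low-threshold channels of axons, held 16.0%, led by Kcna1 (Kv1.1) at 61.1 CPM per kb, with Kcna6 (Kv1.6) at 18.0; Kcna5 (Kv1.5) was its lowest member at 2.41. Their cytoplasmic Kv beta partners held 13.3%, and Kcnab2, at 64.6 CPM per kb, was the highest of all members, followed in its family by Kcnab3 at 17.3. The 3, 10 and 20 highest members together held 24.3%, 54.1% and 76.6% of the summed level per kb.

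Among the other voltage-gated families, the Kv4 genes of A-type current, Kcnd2 and Kcnd3, lay at 22.5 and 18.2 CPM per kb, beside their calcium-binding KChIP subunits Kcnip4 and Kcnip3 at 20.1 and 15.5. In the Kv7 family, which carries the M-current, Kcnq3 lay at 7.56 CPM per kb. Kcnh2, the ERG channel, lay at 18.9 and Kcnh1, the EAG channel, at 4.81. Kcnb2, a Kv2 gene, was lower, at 0.666 CPM per kb. Modulatory subunits, which are silent alone and join Kv2 pores, were led by Kcng4 at 8.74 and Kcnf1 at 4.04, and the MinK-related subunits by Kcne1l, also called Kcne5, at 7.87 and Kcne4 at 0.457.

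Outside the Kv group, the two-pore leak channels held 9.48% of the member sum, led by Kcnk1 (TWIK-1) at 30.0 CPM per kb and Kcnk2 (TREK-1) at 10.0. The sodium-activated channel gene Kcnt1 (Slack) lay at 22.4 CPM per kb and its relative Kcnt2 at 2.26. Kcnj16 (Kir5.1) and Kcnj12 (Kir2.2) led the inward rectifiers at 13.2 and 5.39. Small-conductance calcium-activated channels were led by Kcnn2 (SK2) at 5.95 and Kcnn1 (SK1) at 2.83, and the BK channel by its pore gene Kcnma1 at 4.22 and the beta subunit gene Kcnmb2 at 1.72. Kcnrg, whose product interferes with the assembly of Kv channels, stood alone in the class of other symbols at 0.293 CPM per kb. Kcnmb4 was listed at only 0.110 CPM per kb; its exons overlap those of Kcnmb4os1 and Kcnmb4os2 on the opposite strand, so its level is uncertain in libraries that do not mark strand. Exons of Kcnab2 overlap those of Gm16334 on the same strand. Those of Kcnab3 and Kcnip4, ranked above, overlap genes on the opposite strand. How far their levels depend on this was not tested.

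**Figure D2:**
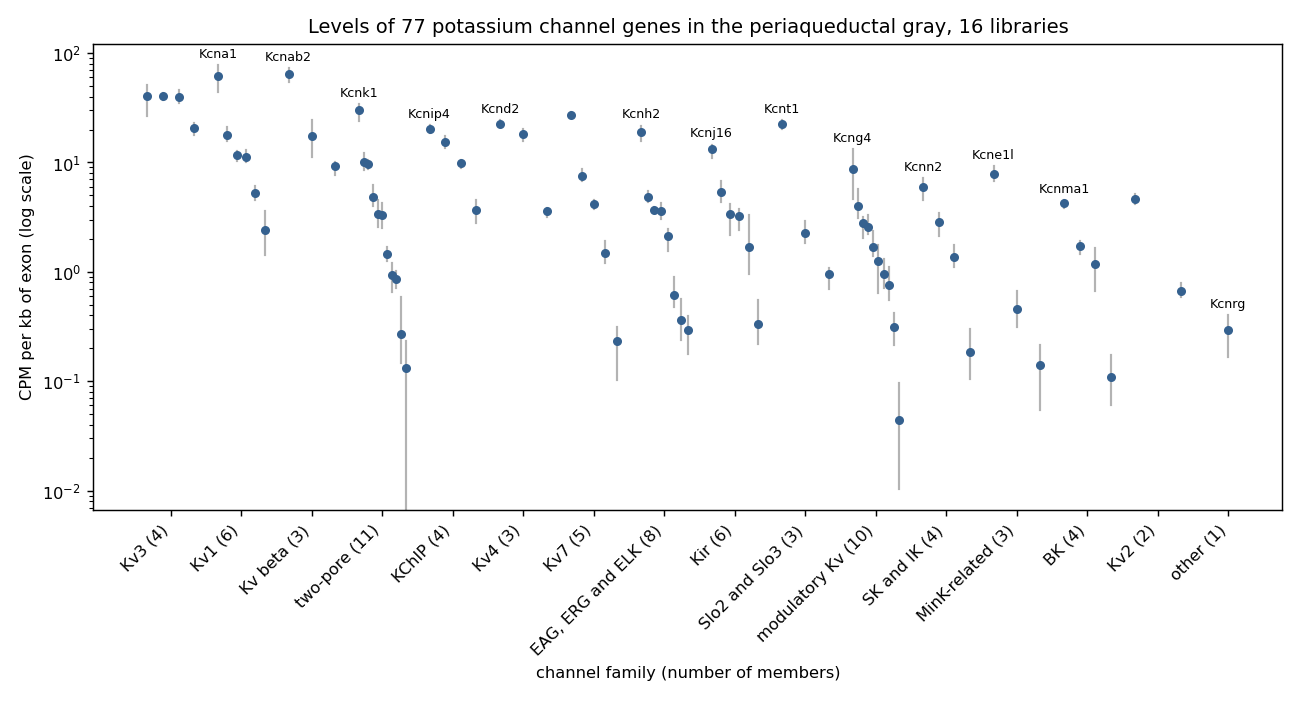
Mean level of each of the 77 members over the 16 libraries, in CPM per kb of exon on a log axis, by family (number of members in brackets); grey lines run from the lowest to the highest library, and the names stand above members with the highest level of their family. Kcnab2, Kcna1 and the Kv3 genes lie at the top, and the line of Kcnk7 leaves the axis because 1 library had no count.

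Members differed in how much they varied. Kcnd2, Kcnh7, an ERG relative, and Kcnc4 were among the steadiest, with ratios of 1.14, 1.14 and 1.15 between the highest and the lowest of the 16 libraries. Kcng4, which encodes the silent subunit Kv6.4, spread 2.86-fold: it stood at 17.6, 20.1, 46.4 and 30.1 CPM in knockout-labelled morphine, 27.3, 40.8, 38.1 and 38.9 in knockout-labelled naive, 24.9, 42.3, 32.8 and 50.3 in wild-type morphine and 37.0, 18.3, 21.4 and 45.6 in wild-type naive libraries. That spread lay within the groups, and all 4 groups overlapped. Kcna1 showed a similar order within groups, with 231, 233, 332 and 244 CPM in knockout-labelled morphine, 292, 371, 303 and 347 in knockout-labelled naive, 273, 315, 309.7 and 307 in wild-type morphine and 301, 209, 259 and 348 in wild-type naive libraries. In both genes wild-type naive replicate 2 was the lowest of its group and knockout-labelled morphine replicate 3 the highest of its group.

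Morphine was compared with naive within each genotype by edgeR's quasi-likelihood test in 1 fit of all 16 libraries, with p-values adjusted over 18111 genes by the Benjamini-Hochberg method and a threshold of 0.05; all adjusted p-values given here come from this test unless another is named, and fold changes are log2 values ± SE, morphine over naive. Kcna5 was higher with morphine in both genotypes. It encodes Kv1.5, a delayed rectifier best known from heart and arterial muscle and also present in microglia (ENSMUSG00000045534, chr6:126532551-126535412, minus strand, GRCm38). Its level was 7.34, 9.83, 6.94 and 10.4 CPM in knockout-labelled morphine libraries, against 4.87, 4.05, 4.43 and 5.37 CPM in knockout-labelled naive libraries. In wild-type morphine libraries it was 8.79, 8.50, 8.28 and 8.30 CPM, against 6.35, 6.17, 5.67 and 4.87 CPM in wild-type naive libraries. Neither pair of groups overlapped. The log2 fold change was 0.88 ± 0.13 in knockout-labelled libraries (adjusted p = 0.000407) and 0.56 ± 0.12 in wild-type libraries (adjusted p = 0.0139), and both calls held when each library was left out in turn. Neither was called with the score of serotonin neuron markers as a covariate, where the log2 fold change was 0.58 in knockout-labelled libraries (adjusted p = 0.0845) and 0.43 in wild-type libraries (adjusted p = 0.0893); with the oligodendrocyte marker score it was 0.60 (adjusted p = 0.0487) and 0.58 (adjusted p = 0.00283). As the tissue is a mixture, more cells that express a gene and more RNA per cell cannot be told apart, here and below. Over the same contrasts the score of 7 microglial markers was −0.20 to −0.02 in knockout-labelled morphine against 0.06 to 0.17 in knockout-labelled naive libraries and −0.14 to −0.10 in wild-type morphine against −0.04 to 0.22 in wild-type naive libraries, and that of 7 endothelial markers was −0.47 to 0.05 against 0.17 to 0.39 and −0.39 to −0.20 against 0.05 to 0.37. The microglial and endothelial scores were lower where Kcna5 was higher. The score of 6 pericyte and smooth muscle markers overlapped in both contrasts. It was −0.28 to 0.59 in knockout-labelled morphine against −0.08 to 0.14 in knockout-labelled naive libraries. In wild-type libraries it was −0.28 to −0.11 with morphine against −0.28 to 0.80 naive. The part of these cell types in the result was not tested.

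In wild-type libraries Kcna5 was the single member called, 1.33% of the 75 tested, against 4.41% of all genes tested. Without adjustment 9 of the 75 had a p under 0.05 (12%, against 20.1% of all genes), and morphine and naive libraries did not overlap in 2 members (2.67%, against 11% of all genes). The next smallest p-values belonged to Kcnk6, a two-pore channel (TWIK-2), with a log2 fold change of 0.39 ± 0.13 (adjusted p = 0.0869), and Kcnip3, with −0.18 ± 0.06 (adjusted p = 0.106). Kcnip3 had 1 wild-type naive library apart, replicate 1 at 48.3 CPM against 60.3 to 62.3 CPM in the other 3; without it the adjusted p was 0.00153. The median over the 75 members was 0.00, as it was −0.01 over all genes. The count was 2 without wild-type naive replicate 1 or 4, and 2 without the 2 libraries high in meningeal markers. With the serotonin score added as a covariate no member was called, and with the oligodendrocyte score 4 were. The share of all genes called in such other settings is not given, here and below.

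In knockout-labelled libraries 16 of the 75 members were called (21.3%, against 11.5% of all genes tested): 5 were higher with morphine (6.67%, against 5.67%) and 11 lower (14.7%, against 5.83%). They came from 10 of the 16 families. Morphine and naive libraries did not overlap in 16 members, which left out the called Kcnd3 and Kcna2 (21.3%, against 17.1% of all genes). Alongside Kcna5, the genes that were higher were 2 two-pore channels, a silent Kv subunit and a Kv4 pore.

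Kcnk9, which encodes the acid-sensitive leak channel TASK-3, stood at 62.1, 63.1, 54.1 and 76.1 CPM in knockout-labelled morphine libraries, against 49.6, 49.1, 50.8 and 52.5 CPM in knockout-labelled naive libraries. All morphine values were above all naive ones, and the log2 fold change was 0.35 ± 0.07 (adjusted p = 0.00600). Wild-type libraries stood at 60.5 to 63.8 CPM with morphine and 56.1 to 63.6 CPM naive, all above the knockout-labelled naive range. Kcnk2, which encodes TREK-1, a leak channel opened by stretch and lipids, stood at 60.1, 52.2, 50.9 and 50.1 CPM in knockout-labelled morphine libraries, against 42.4, 42.1, 43.8 and 42.8 CPM in knockout-labelled naive libraries, again without overlap (0.32 ± 0.08, adjusted p = 0.0230). Wild-type means of Kcnk2 were 51.4 ± 3.04 CPM with morphine and 50.3 ± 7.28 CPM naive (SD, n = 4 each). Both lay above the knockout-labelled naive mean of 42.8 ± 0.763 CPM. Kcns2, which encodes the silent subunit Kv9.2, had 18.4, 16.3, 14.5 and 15.7 CPM in knockout-labelled morphine libraries, against 12.9, 12.3, 14.2 and 12.4 CPM in knockout-labelled naive libraries (0.33 ± 0.08, adjusted p = 0.00968). These groups came close to each other but did not overlap. Kcnd3, the Kv4.3 pore of A-type current, changed least of the 5, with 193, 183, 169.7 and 184 CPM in knockout-labelled morphine libraries, against 165, 152, 170.2 and 165 CPM in knockout-labelled naive libraries (0.16 ± 0.04, adjusted p = 0.0228), and its groups overlapped. Its exons overlap those of Kcnd3os on the opposite strand, which had a mean of 1.33 CPM. Kcnd3os had a log2 fold change of 0.19 and was not called (adjusted p = 0.577). Wild-type means of Kcnd3 were 177 ± 8.23 CPM with morphine and 175 ± 3.89 CPM naive (SD, n = 4 each). These too lay above the knockout-labelled naive mean, 163 ± 8.04 CPM.

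Among the lower genes, the largest differences were in members of low CPM. Kcnk13 (ENSMUSG00000045404) encodes THIK-1, a two-pore channel known in the brain from microglia; it stood at 8.10, 8.03, 10.2 and 8.35 CPM in knockout-labelled morphine libraries, against 11.1, 14.2, 11.5 and 12.4 CPM in knockout-labelled naive libraries (−0.51 ± 0.11, adjusted p = 0.00616). The groups did not overlap, and the microglial score given above was lower in the same libraries, with 1 of its 7 markers called lower. In wild-type libraries that score was also lower with morphine, without overlap. Kcnk13 stood there at 9.02 to 10.1 CPM with morphine and 8.85 to 12.8 CPM naive, and was not called. The part of microglia in the result was not tested. Kcng1, which encodes the silent subunit Kv6.1, stood at 7.21, 6.24, 6.24 and 6.39 CPM in knockout-labelled morphine libraries, against 8.86, 9.30, 10.6 and 8.18 CPM in knockout-labelled naive libraries (−0.49 ± 0.10, adjusted p = 0.00545). Wild-type libraries, at 6.37 to 9.03 CPM with morphine and 6.79 to 7.64 CPM naive, overlapped the knockout-labelled morphine range. Kcne1l, an auxiliary subunit gene on the X chromosome, had 10.4, 10.8, 11.1 and 11.1 CPM in knockout-labelled morphine libraries, against 13.4, 12.2, 14.2 and 13.4 CPM in knockout-labelled naive libraries, without overlap (−0.29 ± 0.07, adjusted p = 0.0110).

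Kcnc1, the Kv3.1 gene, had the highest level per kb of the members called lower. It stood at 331, 342, 378 and 346 CPM in knockout-labelled morphine libraries, against 392, 435, 404 and 418 CPM in knockout-labelled naive libraries (−0.24 ± 0.05, adjusted p = 0.00564). Kcnc2 (Kv3.2) had a smaller difference, with 139 ± 9.66 CPM in knockout-labelled morphine and 155 ± 4.92 CPM in knockout-labelled naive libraries (SD, n = 4 each). Its log2 fold change was −0.16 ± 0.05 (adjusted p = 0.0445). Wild-type means of Kcnc2 were slightly higher with morphine, 150 ± 8.42 against 147 ± 7.34 CPM naive. Those of Kcnc1 were lower, 366 ± 18.7 against 385 ± 22.7 CPM. All 4 Kv3 genes had negative values and 2 were called, with a family median of −0.20. Of all genes tested, 9072 of 18111 had negative values and 5.83% were called lower. With morphine in wild-type libraries 2 of the 4 Kv3 genes were negative, with a median of 0.01. In naive libraries all 4 were higher in knockout-labelled than in wild-type ones, with a median of 0.09. The same knockout-labelled naive libraries enter that contrast and the morphine contrast. In the Kv1 family Kcna6 stood at 107, 103, 97.0 and 92.7 CPM in knockout-labelled morphine libraries, against 111, 113, 126 and 112 CPM in knockout-labelled naive libraries (−0.21 ± 0.06, adjusted p = 0.0285). Kcna2, the Kv1.2 gene, averaged 125 ± 7.67 CPM in knockout-labelled morphine libraries and 146 ± 10.3 CPM in knockout-labelled naive libraries (−0.22 ± 0.07, adjusted p = 0.0435), and its groups overlapped. Wild-type means with morphine and naive were 104 ± 7.42 and 108 ± 6.16 CPM for Kcna6. For Kcna2 they were 132 ± 9.55 and 135 ± 11.4 CPM. Gm26673, on the opposite strand of Kcna6 exons, had a mean of 2.43 CPM, against 107 CPM for Kcna6. It was lower too, by a log2 fold change of −0.74 that just missed the threshold (adjusted p = 0.0547).

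Genes of further families were also lower. Kcnip3 encodes KChIP3, also named DREAM, which binds Kv4 channels and represses transcription in a calcium-dependent way; it stood at 48.7, 50.1, 50.4 and 53.9 CPM in knockout-labelled morphine libraries, against 61.2, 59.2, 61.6 and 57.0 CPM in knockout-labelled naive libraries (−0.23 ± 0.06, adjusted p = 0.0240). Its groups did not overlap. Kcnj11 (ENSMUSG00000096146) encodes Kir6.2, the pore of ATP-sensitive channels, and stood at 8.04, 10.4, 11.0 and 10.6 CPM in knockout-labelled morphine libraries, against 11.9, 12.2, 12.3 and 13.8 CPM in knockout-labelled naive libraries (−0.33 ± 0.10, adjusted p = 0.0377). Kcnn1, the SK1 gene, had 9.96, 9.83, 14.1 and 11.1 CPM in knockout-labelled morphine libraries, against 14.4, 15.4, 14.2 and 14.7 CPM in knockout-labelled naive libraries (−0.39 ± 0.11, adjusted p = 0.0368), and the highest morphine library lay just below the lowest naive one. Wild-type means of Kcnn1 were 13.2 ± 1.36 CPM with morphine and 12.9 ± 1.98 CPM naive. A230052G05Rik overlaps Kcnn1 exons on the opposite strand, with a mean of 0.862 CPM. Its log2 fold change was also −0.39, and it was not called (adjusted p = 0.380).

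**Figure D3:**
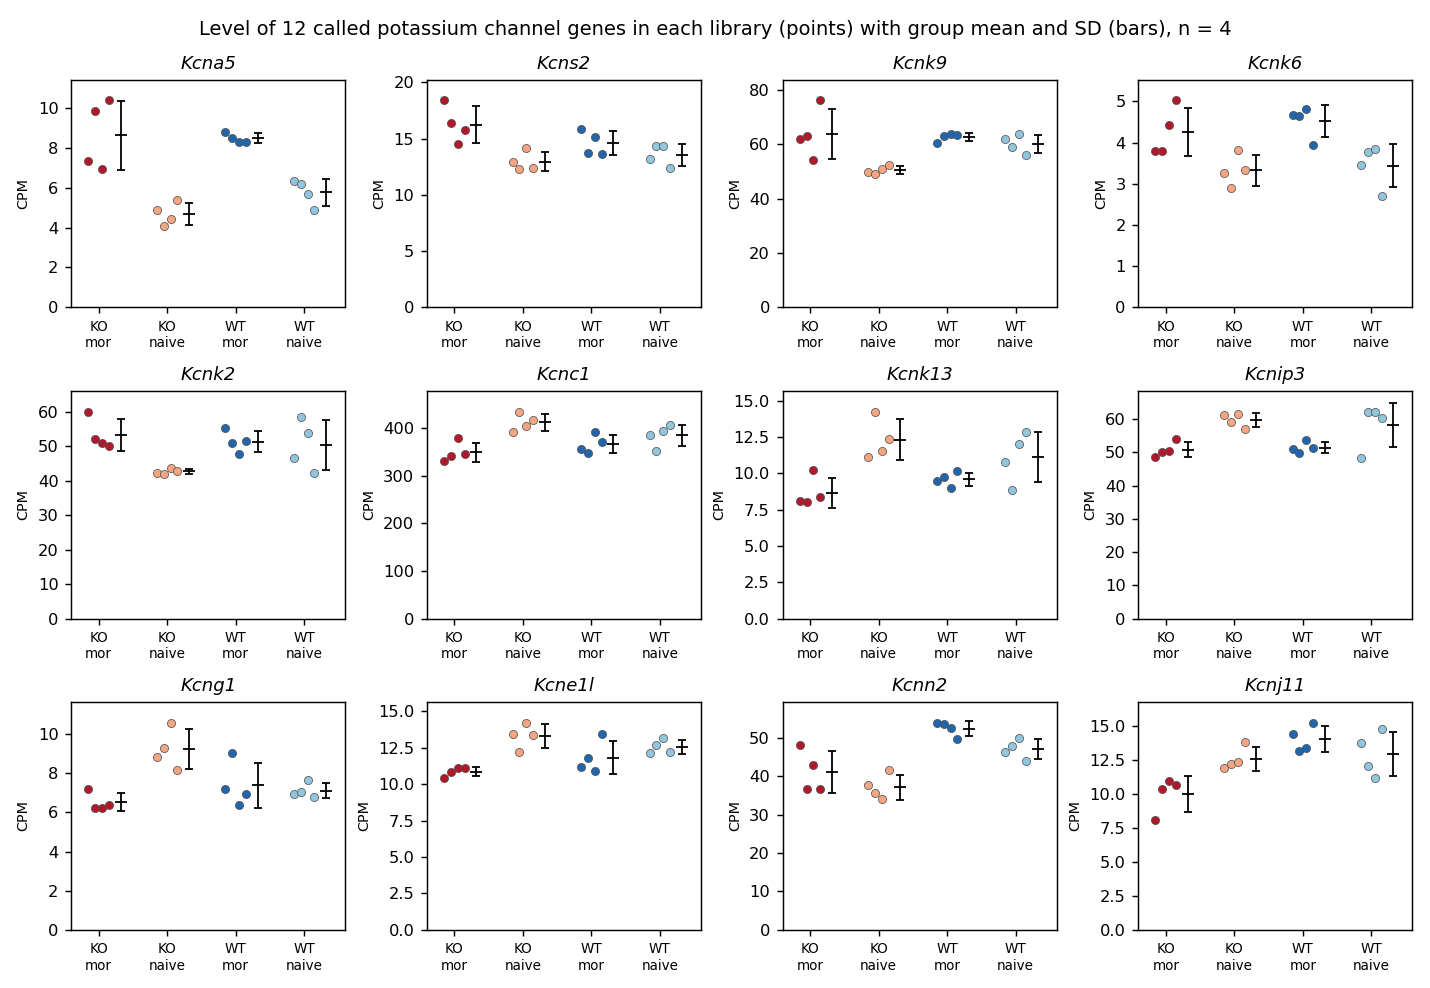
Level in CPM of 12 of the called members in each of the 16 libraries (points), with the mean and SD of each group of 4 (bars), groups running KO morphine, KO naive, WT morphine and WT naive from left to right (KO, knockout-labelled; mor, morphine). Kcna5 was higher with morphine in both genotypes, while the Kcnn2 values of knockout-labelled and wild-type libraries did not overlap under either treatment.

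These calls in knockout-labelled libraries went with a shift in marker lists. Of 10 serotonin neuron markers 9 were called higher with morphine, and their summed level was 595 to 1788 CPM in knockout-labelled morphine libraries, against 167 to 408 CPM in knockout-labelled naive libraries. Of 10 oligodendrocyte markers 7 were called lower, with a summed level of 7126 to 9071 CPM in knockout-labelled morphine libraries, against 10262 to 11817 CPM in knockout-labelled naive libraries, and a score of −0.40 to −0.08 against 0.12 to 0.38. Other scores also did not overlap between these groups and were not used as covariates. That of 5 general neuron markers was −0.02 to 0.14 with morphine against −0.09 to −0.04 naive (2 called higher). For 3 glutamatergic neuron markers it was 0.16 to 0.99 against −0.73 to −0.42 (1 called higher). For 5 dopamine neuron markers it was −0.01 to 0.41 against −0.39 to −0.12 (2 called higher). Of the 7 endothelial markers 4 were called lower. With the serotonin score as a covariate 3 members were called in this contrast, and with the oligodendrocyte score 2 were. Without the share of all genes called under each score, these counts cannot be read as particular to the members. All 16 genes kept their sign under both scores. Their median absolute log2 fold change was 0.29 with the serotonin score and 0.14 with the oligodendrocyte score, against 0.33 without a covariate, and the median SE was 0.11 and 0.10, against 0.07. Since both scores separated the treatments in these libraries without overlap, a change in the makeup of the punch and a change within cells cannot be told apart. With the oligodendrocyte score the log2 fold change of Kcnn1 was −0.05, that of Kcna2 −0.05, that of Kcnk13 −0.12 and that of Kcnk2 0.11, while those of Kcng1, Kcne1l and Kcnip3 were −0.47, −0.32 and −0.34; Kcna5 and Kcnip3 were called. With the serotonin score Kcnk2, Kcns2 and Kcnj11 were called, with larger values of 0.55, 0.51 and −0.56. Kcnk9 was then at 0.21, Kcng1 at −0.32, Kcnip3 at −0.11 (adjusted p = 0.561) and Kcnc2 at −0.03 (adjusted p = 0.874), and none of these was called.

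The calls of Kcna5, Kcng1, Kcnc1, Kcnk9, Kcnk13, Kcns2 and Kcne1l held when each of the 16 libraries was left out in turn. Of the 15 called members with the smallest p-values, the other 8, among them Kcnd3, Kcnk2, Kcnip3, Kcna6, Kcnn1, Kcnj11 and Kcna2, lost their call without any of 4 to 10 libraries each, with adjusted p-values of at most 0.137. The count of called members was 7 without knockout-labelled naive replicate 2 and 10 without its replicate 3. It was 10, 9 and 9 without knockout-labelled morphine replicates 1, 2 and 4. Without knockout-labelled morphine replicate 3 and wild-type naive replicate 2 together it was 21, with 6 higher and 15 lower.

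The morphine differences in the 2 genotypes rest on separate libraries. Over the 75 members 41 had the same sign in both (54.7%, against 61.9% of all genes), and of the 16 called in knockout-labelled libraries 12 did. The share over all genes called in knockout-labelled libraries was not computed, so the 12 of 16 has no like background. The genotype by morphine interaction, which tests whether the differences are unequal, called none of the 75 members and 0% of all genes. Without adjustment 12 of the 75 members (16%) and 2200 of 18111 genes (12.1%) had a p under 0.05 by edgeR, and DESeq2's Wald test and limma-voom also called no member. The smallest interaction p-values belonged to Kcng1, at −0.54 ± 0.14 (95% interval −0.82 to −0.26, adjusted p = 0.207), and Kcnj11, at −0.45 ± 0.14 (95% interval −0.72 to −0.18, adjusted p = 0.267). The 95% intervals, here and below, were taken from the SE by a normal approximation, which makes them somewhat narrow. They are not adjusted for the many genes tested, and these 2 members were picked by smallest p. Next by p came Kcnk9 with 0.29 ± 0.10 (adjusted p = 0.299) and Kcnc2 with −0.19 ± 0.07 (adjusted p = 0.314). That more members were called in knockout-labelled than in wild-type libraries is therefore no test of a difference between the genotypes.

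**Figure D4:**
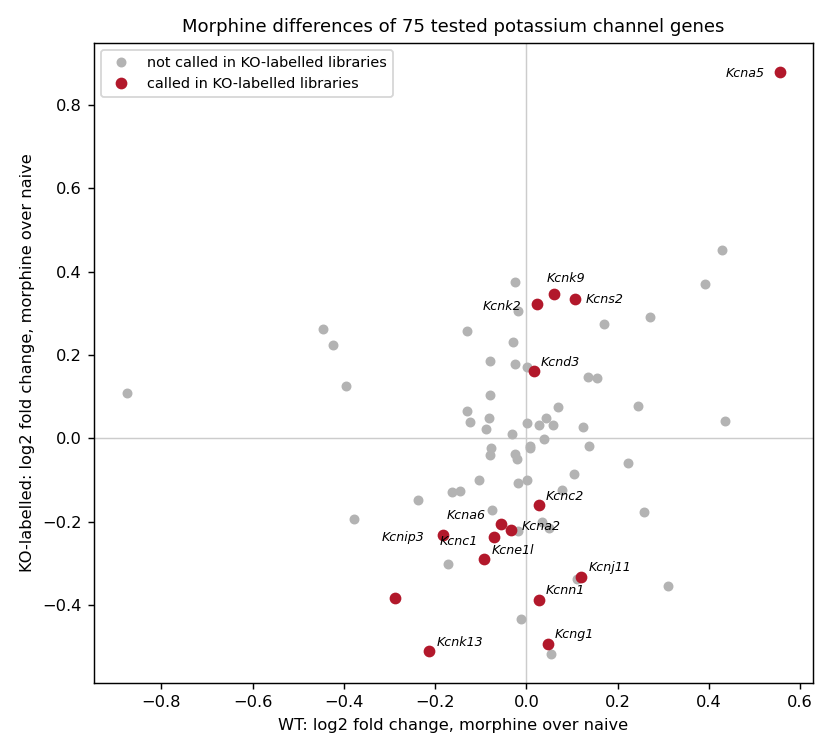
Log2 fold change of the 75 tested members, morphine over naive, in wild-type libraries (horizontal axis) and in knockout-labelled libraries (vertical axis); each point is 1 gene, red where called in knockout-labelled libraries. Kcna5 lies apart at the upper right, at 0.88 in knockout-labelled and 0.56 in wild-type libraries, and most other red points lie close to 0 on the wild-type axis.

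Averaged over both genotypes, morphine called 13 of the 75 members (17.3%, against 17.1% of all genes): 4 were higher (5.33%, against 9.02%) and 9 lower (12%, against 8.03%). Kcna5 had the smallest p, with an average log2 fold change of 0.72 ± 0.09 (adjusted p = 2.86e-05). Kcnk6, Kcnt1 and Kcnj2 were called on the average alone. Kcnk6 averaged 4.26 ± 0.587 CPM in knockout-labelled morphine and 3.33 ± 0.376 CPM in knockout-labelled naive libraries, and 4.53 ± 0.391 CPM in wild-type morphine and 3.44 ± 0.521 CPM in wild-type naive libraries (SD, n = 4 each). Its differences were nearly equal, 0.37 ± 0.13 and 0.39 ± 0.13, with an average of 0.38 ± 0.09 (adjusted p = 0.00723). Kcnip3, at −0.23 ± 0.06 in knockout-labelled and −0.18 ± 0.06 in wild-type libraries, had an average of −0.21 ± 0.04 (adjusted p = 0.00379). Kcnt1, the sodium-activated channel, had a small average difference of −0.10 ± 0.03 (adjusted p = 0.0155), with 205 ± 7.99 CPM in knockout-labelled morphine and 219 ± 5.53 CPM in knockout-labelled naive libraries, and 206 ± 8.70 CPM in wild-type morphine and 221 ± 8.99 CPM in wild-type naive libraries. Kcnj2, the Kir2.1 inward rectifier gene, averaged −0.24 ± 0.07 (adjusted p = 0.0357). Kcnk13, Kcnc1, Kcns2, Kcne1l, Kcnk9, Kcna6 and Kcng1, all called in knockout-labelled libraries, had averages of −0.36, −0.15, 0.22, −0.19, 0.20, −0.13 and −0.22. Leaving out single libraries cost the call of Kcna6, Kcnj2 and Kcng1 for 8, 12 and 11 of the 16 libraries, with adjusted p-values of at most 0.0849, and of none of the other 10. Without wild-type naive replicate 2 and knockout-labelled morphine replicate 3 together, 20 members were called. With the serotonin score as a covariate 3 were, and 2 of the 13 calls were kept, those of Kcna5 and Kcns2. With the oligodendrocyte score 6 of the 13 calls were kept, and those of Kcnc1, Kcnk6, Kcns2, Kcnk9, Kcna6, Kcnj2 and Kcng1 were lost, with adjusted p-values from 0.0713 for Kcnj2 to 0.217 for Kcna6.

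**Figure D5:**
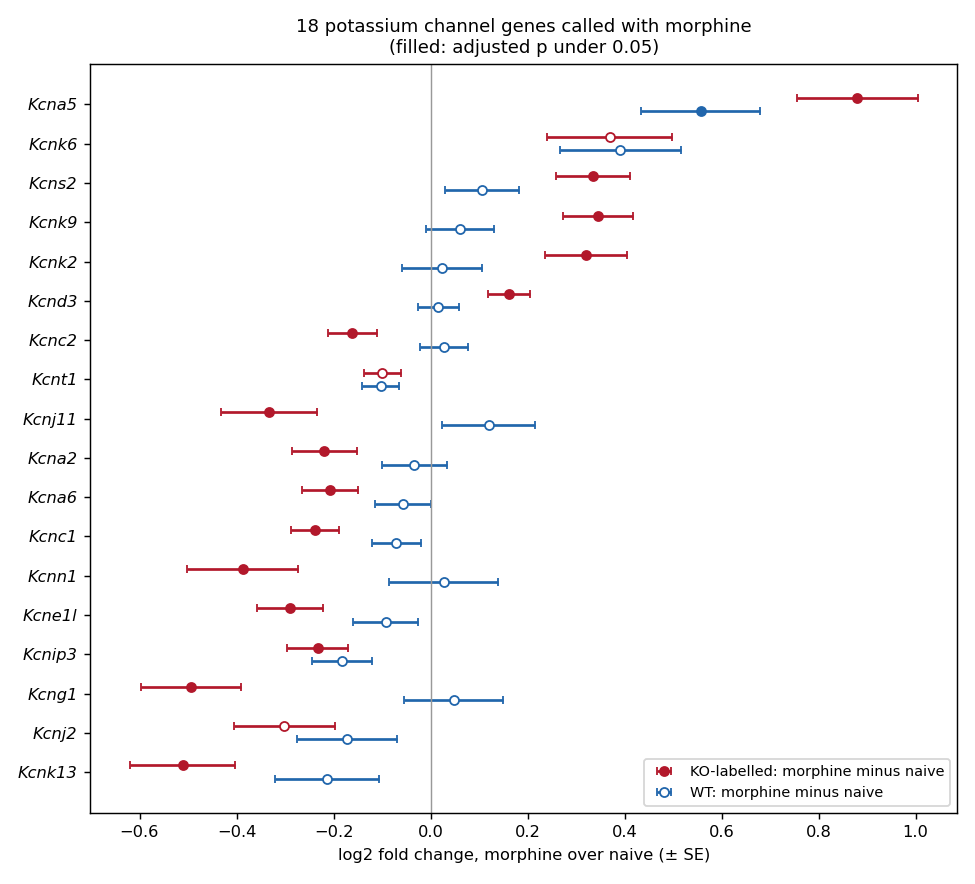
Log2 fold change ± SE, morphine over naive, of 18 members called with morphine in knockout-labelled libraries, in wild-type libraries or on the average of both; red is knockout-labelled, blue is wild type, and filled points passed an adjusted p of 0.05 within that genotype. Kcna5 and Kcnk6 stand to the right of 0 in both genotypes, and Kcnip3 and Kcnk13 to the left in both.

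The upstream sequences of the members with the smallest average p-values are shown to let the called genes be read beside their letters. RefSeq promoter windows on GRCm38.p6, from 250 bases before to 50 bases after the RefSeq gene start, were at hand for 52 of the 75 tested members and 12 of the 20 called in any comparison. The 4 of these with the smallest average p are printed 5′ to 3′ on the gene's strand, with capitals marking matches of the motifs named below other than the GC box. For Kcna5 the RefSeq start differs from that of the GENCODE gene given above, and its window lies wholly upstream of that gene.
Kcna5 (chr6:126535506-126535805, minus strand): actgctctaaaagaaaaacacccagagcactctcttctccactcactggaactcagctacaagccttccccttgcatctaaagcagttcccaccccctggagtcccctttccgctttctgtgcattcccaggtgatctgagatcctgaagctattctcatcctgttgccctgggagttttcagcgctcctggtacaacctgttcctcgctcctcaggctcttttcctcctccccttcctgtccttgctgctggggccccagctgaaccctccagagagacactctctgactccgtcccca
Kcnk13 (chr12:99964249-99964548, plus strand): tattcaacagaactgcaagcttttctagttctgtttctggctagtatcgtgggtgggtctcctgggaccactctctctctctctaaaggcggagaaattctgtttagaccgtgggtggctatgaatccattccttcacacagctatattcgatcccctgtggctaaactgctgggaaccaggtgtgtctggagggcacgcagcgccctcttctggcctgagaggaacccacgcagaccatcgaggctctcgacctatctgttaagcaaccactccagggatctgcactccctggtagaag
Kcnip3 (chr2:127522045-127522344, minus strand): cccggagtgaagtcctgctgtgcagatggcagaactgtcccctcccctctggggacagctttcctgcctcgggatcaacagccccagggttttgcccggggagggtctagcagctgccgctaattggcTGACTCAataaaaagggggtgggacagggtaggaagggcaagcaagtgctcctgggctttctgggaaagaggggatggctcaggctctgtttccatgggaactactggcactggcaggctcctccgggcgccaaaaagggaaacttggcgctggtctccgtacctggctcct
Kcnc1 (chr7:46396218-46396517, plus strand): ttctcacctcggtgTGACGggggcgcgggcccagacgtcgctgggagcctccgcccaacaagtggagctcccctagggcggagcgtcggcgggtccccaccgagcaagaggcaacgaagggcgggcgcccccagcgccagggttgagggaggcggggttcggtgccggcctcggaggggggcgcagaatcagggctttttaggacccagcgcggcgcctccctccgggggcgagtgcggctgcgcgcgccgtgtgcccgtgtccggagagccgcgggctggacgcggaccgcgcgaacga

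Motifs were searched on both strands as exact letters. The Kcnip3 window held 1 AP-1 site (TGANTCA), found in 2 of the 52 members and 7.93% of all 27025 windows. The Kcnc1 window held 1 short cyclic AMP site (TGACG), found in 14 of 52 members and 21.02% of all windows, and 3 GC boxes (GGGCGG), found in 31 of 52 members and 35.9% of all windows. The Kcna5 and Kcnk13 windows held none of the motifs searched. The full cyclic AMP element (TGACGTCA), which contains the short site, the full glucocorticoid response element, which contains the short one (AGAACA), and the TATA box (TATAAA) were in none of the 52, against 1.88%, 0.0037% and 14.2% of all windows. The short glucocorticoid site was in 3 of 52 and 19.02% of all windows, and the E-box (CACGTG) in 5 of 52 and 7.24%. GC content was 55% for Kcna5, 52.7% for Kcnk13, 60.3% for Kcnip3 and 74.7% for Kcnc1, and the median over all windows was 52.7%. The letters describe these windows and say nothing about binding.

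Between genotypes, 1 member was called in naive libraries and 1 under morphine. In naive libraries that was 1.33% of 75, against 0.906% of all genes. Kcnn2 (ENSMUSG00000054477), which encodes SK2, the small-conductance calcium-activated channel of the after-hyperpolarisation, stood at 37.6, 35.5, 33.9 and 41.5 CPM in knockout-labelled naive libraries, against 46.3, 47.9, 49.9 and 43.9 CPM in wild-type naive libraries, without overlap. The log2 fold change, knockout-labelled over wild type, was −0.34 ± 0.08 (adjusted p = 0.0484). Under morphine it stood at 48.2, 36.7, 42.8 and 36.8 CPM in knockout-labelled libraries, against 53.9, 53.5, 52.5 and 49.7 CPM in wild-type libraries, again without overlap, with a log2 fold change of −0.35 ± 0.08 that missed the threshold (adjusted p = 0.0632). So the 2 differences, from separate libraries, were of nearly the same size, and the interaction was −0.01 ± 0.11, with a 95% interval of −0.23 to 0.20. The naive call was lost without any of 11 libraries: all but wild-type naive replicate 4, knockout-labelled naive replicate 4, and knockout-labelled morphine replicates 1, 2 and 4, with adjusted p-values of at most 0.170. Without the 2 libraries high in meningeal markers its adjusted p was 0.141. A330093E20Rik, with a mean of 1.05 CPM, overlaps Kcnn2 exons on the opposite strand and was not called. Its log2 fold change was 0.03 in naive libraries (adjusted p = 0.974) and −0.35 under morphine (adjusted p = 0.677).

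In naive libraries the next smallest p-values belonged to Kcng1, at 0.37 ± 0.10 (adjusted p = 0.0914), Kcnk9, at −0.25 ± 0.07 (adjusted p = 0.119), and Kcnip2, the KChIP2 gene, at −0.31 ± 0.10 (adjusted p = 0.181). The knockout-labelled naive libraries also enter the morphine contrast in which Kcng1 was called lower and Kcnk9 higher, so these results are not separate. Unadjusted p-values were under 0.05 for 10 of the 75 (13.3%, against 12.9% of all genes), and groups did not overlap in 5 (6.67%, against 8.13% of all genes). Under morphine Kcnj11 was the member called, 1.33%, against 0.53% of all genes. It stood at 8.04 to 11.0 CPM in knockout-labelled morphine libraries, all below the 13.1 to 15.2 CPM of wild-type morphine libraries (−0.49 ± 0.10, adjusted p = 0.0264), while in naive libraries the difference was −0.04 ± 0.10 (adjusted p = 0.901). The call was lost without wild-type morphine replicate 1, 2 or 4 or knockout-labelled morphine replicate 1, 2 or 4, with adjusted p-values of at most 0.0939. The next were Kcnn4, the intermediate-conductance IK channel gene, at 0.70 ± 0.24 (adjusted p = 0.312), and Kcnc2, at −0.12 ± 0.05 (adjusted p = 0.448). The same knockout-labelled morphine libraries enter this contrast and the morphine contrast in which Kcnj11 was called lower.

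Genes whose products bind or anchor potassium channels were followed in the same fit, and all 31 on the list were tested. With morphine, 9 of them (29.0%, against 11.5% of all genes) were called in knockout-labelled libraries, 5 higher and 4 lower. In wild-type libraries 1 was called (3.23%, against 4.41% of all genes): Lgi4, a secreted ligand of ADAM proteins, fell by 0.33 on the log2 scale (SE 0.06, adjusted p = 0.00484). In knockout-labelled libraries Cntn2, a cell adhesion molecule that clusters Kv1 channels beside the node of Ranvier, had a log2 fold change of −0.36 ± 0.07 (adjusted p = 0.00310), while its partner Cntnap2 was higher, at 0.16 ± 0.04 (adjusted p = 0.0219). Ank3 and Sptbn4, ankyrin G and beta-IV spectrin, which hold Kv7 channels at the axon initial segment, were lower, at −0.25 ± 0.06 (adjusted p = 0.0110) and −0.15 ± 0.04 (adjusted p = 0.0218). Amigo2, a relative of the Kv2 subunit AMIGO1, was higher, at 0.31 ± 0.07 (adjusted p = 0.00852), and Lgi3 was lower, at −0.30 ± 0.08 (adjusted p = 0.0282). Averaged over genotypes 12 of the 31 were called (38.7%, against 17.1% of all genes), 7 higher and 5 lower, and no partner was called between genotypes or in the interaction. The partner calls in knockout-labelled libraries numbered 1 with the serotonin score and 0 with the oligodendrocyte score as a covariate, and 3 to 10 when single libraries were left out.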

How the data were processed

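Each of the 16 libraries has 1 deposited file of raw read counts per gene, all whole numbers. Per the labels' protocols, PAG punches of 2 animals were pooled per library and made into libraries with Illumina's TruSeq RNA kit, version v2, a kit that does not mark strand. Per the submitters' processing notes, HTSeq and mm10 were used, and limma is also named; which aligner, gene models and strand option were used is not given in the sources used here. Tallies of reads outside genes, 38.2 to 40.6% of each file's total, stayed out of library sizes and tests. The labels call the replicates biological; p-values measure the spread between these pools. No replicate pair agreed within sampling noise (chi-square per gene of at least 3.72).

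Gene identifiers were matched to GENCODE M21 on GRCm38, the assembly of mm10 (37607 of 38924). Genes were kept with filterByExpr (minimum count 10), scaled with TMM and fitted with edgeR 4.0.16 in R 4.3.3 (quasi-likelihood, robust, 1 coefficient per group), giving 6 comparisons. The scripts were tested on simulated data. Members, gene lists, the naming rule and the tests were chosen with earlier results of these data known. A few members are not reported here by name. Members were named when called (at most 15 per comparison, by p), when among the 4 smallest p-values where fewer were called, when among the 2 highest of a family per kb, when next to the count limit, or when 1 library stood apart; Kcnh7 and Kcnmb4 were named after their values were seen. Alternatives were limma-voom (3.58.1), DESeq2 1.42.0 (its size factors, and its Wald test), no filter, a filter of 1 CPM in at least 8 libraries, only the groups compared, a replicate block, 2 marker scores as covariates and leaving out each library; leaving out 2 libraries together was added after seeing the data.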

Additional observations from a re-analysis of the deposited data

Results flagged for a closer look

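Within each group of 4, the gap between the highest or lowest library and its neighbour was set against the group's range and compared with Dixon's critical value for 4 samples. Of 308 group tests over the 77 members, 20 passed, in 20 different genes; chance flags about 1 in 20 groups, so this number is close to what chance gives.

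They included the following. Of the called members, Kcnk13 stood high at 10.2 CPM and Kcna2 at 136 CPM in knockout-labelled morphine replicate 3, and Kcng1 stood high at 7.21 CPM in knockout-labelled morphine replicate 1. Kcna6 stood high at 126 CPM in knockout-labelled naive replicate 3. Kcnd3 stood low at 165 CPM in wild-type morphine replicate 4, and Kcnip3 low at 48.3 CPM in wild-type naive replicate 1.

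Among the other members, knockout-labelled morphine libraries held high values of Kcna1 (332 CPM, replicate 3), Kcnd2 (125 CPM, replicate 2) and Kcnh1 (39.8 CPM, replicate 1). Knockout-labelled naive libraries held a low value of Kcnn3, the SK3 gene (11.6 CPM, replicate 2). In wild-type morphine libraries low values were seen for Kcnab3 (44.8 CPM), Kcnk10, the TREK-2 gene (6.52 CPM), and Kcne2 (0.0973 CPM), all in replicate 1, and high values for Kcnk4, the TRAAK gene (6.88 CPM, replicate 4), Kcnj4, the Kir2.3 gene (1.19 CPM, replicate 4), and Kcnb2 (11.4 CPM, replicate 3). Wild-type naive libraries held high values of Kcnq5, a Kv7 gene (34.1 CPM, replicate 3), Kcnn4 (1.15 CPM, replicate 2) and Kcnk7 (0.369 CPM, replicate 4). No cause was tested for any of these.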

How the results depend on the processing

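Single-gene values were recomputed under alternatives for 44 pairs of a gene and a comparison, and other fold changes given for single genes were not. None of those recomputed changed sign, 963 kept their side of the threshold, 152 lost a call and 11 gained one. DESeq2 size factors left the median level of the members at 14.73 CPM, and all member levels within 1 SD. Counts of called members that moved by over 1.5 times are listed next, without the share of all genes called in each setting. They do not show whether the members moved more than other genes. For morphine in wild-type libraries (1 called), the serotonin score gave 0, the oligodendrocyte score 4, the 2 libraries left out together 2, and single libraries left out 1 to 2. For morphine in knockout-labelled libraries (16 called), the serotonin score gave 3, the oligodendrocyte score 2, and single libraries left out 7 to 19. For knockout-labelled against wild-type naive libraries (1 called), DESeq2 size factors, no filter, the replicate block, the oligodendrocyte score and the 2 libraries left out together gave 0, DESeq2's Wald test gave 3, the serotonin score and the fit of only the groups compared gave 2, and single libraries left out gave 0 to 2. Under morphine (1 called), DESeq2's Wald test gave 2, the oligodendrocyte score 0 and single libraries left out 0 to 2. For the average (13 called), the serotonin score gave 3, the 2 libraries left out together 20, and single libraries left out 10 to 14. The interaction gave 0 in every setting. Partner genes with morphine numbered 2 by DESeq2's Wald test and 1 to 2 with single libraries left out in wild-type libraries (1 called). They numbered 1 with the serotonin score, 0 with the oligodendrocyte score and 3 to 10 with single libraries left out in knockout-labelled libraries (9 called), and 0, 6 and 7 to 13 on the average (12 called). The cause was not tested.

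Replicate numbers did not pair the samples: 24 correlations between same-numbered libraries of different groups ran from −0.28 to 0.13, with a mean of −0.03. With the numbers as a replicate block, 1, 13, 0, 1, 0 and 11 members were called in the 6 comparisons, in the order morphine in wild type, morphine in knockout-labelled, genotype naive, genotype under morphine, interaction and average. Members of low CPM have few counts, so small differences in them were not detectable at this depth.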

Other observations

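Kcnab3, which encodes a Kv beta subunit, was a further member that varied widely between libraries of 1 group. It stood at 31.9, 41.5, 54.6 and 38.1 CPM in knockout-labelled morphine libraries, 52.9, 69.9, 53.1 and 59.5 CPM in knockout-labelled naive libraries, 44.8, 51.1, 51.8 and 51.3 CPM in wild-type morphine libraries and 50.3, 37.2, 43.4 and 61.7 CPM in wild-type naive libraries. As with Kcna1 and Kcng4, knockout-labelled morphine replicate 3 was the highest of its group and wild-type naive replicate 2 the lowest of its group. These are the 2 libraries that stood apart in meningeal fibroblast markers, 1 at each end of the order. In knockout-labelled libraries the morphine difference was −0.52 ± 0.17 for Kcnab3 (edgeR, adjusted p = 0.0726) and −0.34 ± 0.15 for Kcna1 (edgeR, adjusted p = 0.184), and neither was called.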
